A study of Homo sapiens and Canis lupus familiaris with 27 samples.

Results

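The genes described here are 32 genes that are known either as targets of androgen signalling or as markers of luminal prostate epithelium, followed through the prostate carcinoma cell lines PC-3, LNCaP and CT1258. They were found by their symbol in the gene count tables, which hold 25300 different symbols in all. All 32 were listed for the human lines PC-3 and LNCaP, whose tables hold 23708 genes, and 28 were listed among the 16028 genes of the canine line CT1258. KLK3, KLK4, AZGP1 and MAF were not analysed here in CT1258. After the filter on low counts, 32 members could be tested in LNCaP, 25 in PC-3 and 19 in CT1258.

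The cells had been treated with the indolylmaleimide PDA-66 at 15 μM for 12 h or 24 h, or with its solvent DMSO at 0.15%. PC-3 is a line from a bone marrow metastasis and LNCaP one from a lymph node metastasis, both of human prostate adenocarcinoma, and CT1258 is a line from a prostate adenocarcinoma of a dog. Each line was kept in a medium of its own with fetal bovine serum, so line and medium cannot be told apart, and no hormone is named among the treatments. Each of the 9 groups had 3 independent replicates, but of the PC-3 DMSO group 2 samples were analysed, which leaves 26 samples. The control cells are labelled with 24 h, so the same DMSO samples served for both times. Changes after 12 h, and those between 12 h and 24 h, can therefore not be told apart from time in culture.

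The LNCaP libraries held 11923105 to 14741883 counts each and those of PC-3 held 14650839 to 18091755. The CT1258 libraries ranged from 7203534 to 20976950 counts, with the DMSO samples the deepest. The spread estimated over all groups of a line was larger in LNCaP (common biological coefficient of variation 0.2398) than in CT1258 (0.1001) and PC-3 (0.0971). One library stood apart: LNCaP PDA-66 12 h replicate 2 lay 0.926 (root mean square log2 difference over all genes tested) from its group, whose other members lay at 0.579 and 0.621. The latter distances include the one to replicate 2. The LNCaP DMSO samples lay at 0.431 to 0.487 and the 24 h samples at 0.235 to 0.249, so the larger spread was not in every group. In CT1258, DMSO replicate 2 lay at 0.385, and the other DMSO samples at 0.285 and 0.287. Where a call changed without one of these libraries, the value without it is given for some members and not for all. Where samples are said not to overlap, the share of all genes without overlap was not counted.

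Androgens such as testosterone and dihydrotestosterone activate genes through androgen response elements, often with the help of the pioneer factors FOXA1 and GATA2 and of HOXB13. In the secretory luminal cells of the prostate they drive the kallikreins of the seminal fluid, among them KLK3, which encodes the prostate-specific antigen used as a blood marker of prostate disease. Several androgen targets, FKBP5 among them, also respond to the glucocorticoid receptor, which binds the same elements.

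The kallikrein genes KLK2 and KLK3 lie next to each other on chromosome 19, at 51364824 to 51383823 and at 51358171 to 51364020 (GRCh37, plus strand). Their promoters are shown because both genes were well covered in LNCaP and had no count in the PC-3 controls. The stretches come from RefSeq promoter windows of GRCh38.p14, and the capitals mark the best match to the androgen response element, which was searched as AGAACA, 3 bases of any kind and then TGTTCT.
KLK3, chr19:50854723-50854782, plus strand: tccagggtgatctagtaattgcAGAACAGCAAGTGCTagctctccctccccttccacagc
KLK2, chr19:50873241-50873300, plus strand: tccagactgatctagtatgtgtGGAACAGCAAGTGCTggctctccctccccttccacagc
The KLK3 match starts 170 bases before the annotated start of transcription and departs from the motif in 2 of its 12 defined bases, and that of KLK2 starts 176 bases before the start and departs in 3. RefSeq windows of 300 bases were at hand for 25 of the 32 members (42 windows). On either strand, 7 of these 42 windows held the motif with at most 3 departures, and 10.8% of all 35116 windows did. The single half-site AGAACA was found in 5 of the 42 member windows (11.9%), which belong to 4 members, and in 14.8% of all windows. Such a match is a description of letters and not a bound site.

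Levels are given as CPM, the count per megaread of the TMM-scaled library. Under DMSO, NR3C1, the gene of the glucocorticoid receptor, which is not a member, was at 55.4 ± 7.7 CPM (SD, n = 2) in PC-3 and 0.91 ± 0.43 CPM (SD, n = 3) in LNCaP. Of the luminal markers, CDH1, the cell adhesion protein E-cadherin, was at 770 ± 17 CPM (SD, n = 3) in LNCaP and 6.06 ± 3.27 CPM (SD, n = 2) in PC-3, whereas the keratin KRT18 was at 259 ± 21 and 350 ± 15 CPM. The other luminal markers did not all follow CDH1, since EPCAM (109 CPM in LNCaP, 12.3 CPM in PC-3) and KRT8 (266 and 178 CPM) had the higher mean in LNCaP and KRT19 (16.1 and 491 CPM) had it in PC-3. The basal markers KRT5 and TP63 were at 1.27 CPM or less in both lines, KRT14 was at 2.06 CPM or less, and KRT15 was at 42.3 CPM in PC-3. VIM, the mesenchymal filament protein vimentin, was at 2117 ± 471 CPM in PC-3 and 13.6 ± 1.3 CPM in LNCaP. FN1 (fibronectin), of the same mesenchymal list, was the other way round, at 329 ± 30 CPM in LNCaP and 62.8 ± 35.5 CPM in PC-3. In CT1258, EPCAM, the 1 luminal marker listed of 5, was at 0 in all DMSO samples. The 3 basal markers listed were at 0, and CDH2 (N-cadherin) was at 516 ± 46 CPM (SD, n = 3). The listed markers thus lend no support to an epithelial label for that line, but they are too few to settle it. The keratins KRT8, KRT18 and KRT19 and CDH1 were not analysed here. Whether a gene at 0 was not expressed or was missed in counting on the canine genome was not tested.

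**Figure D1:**
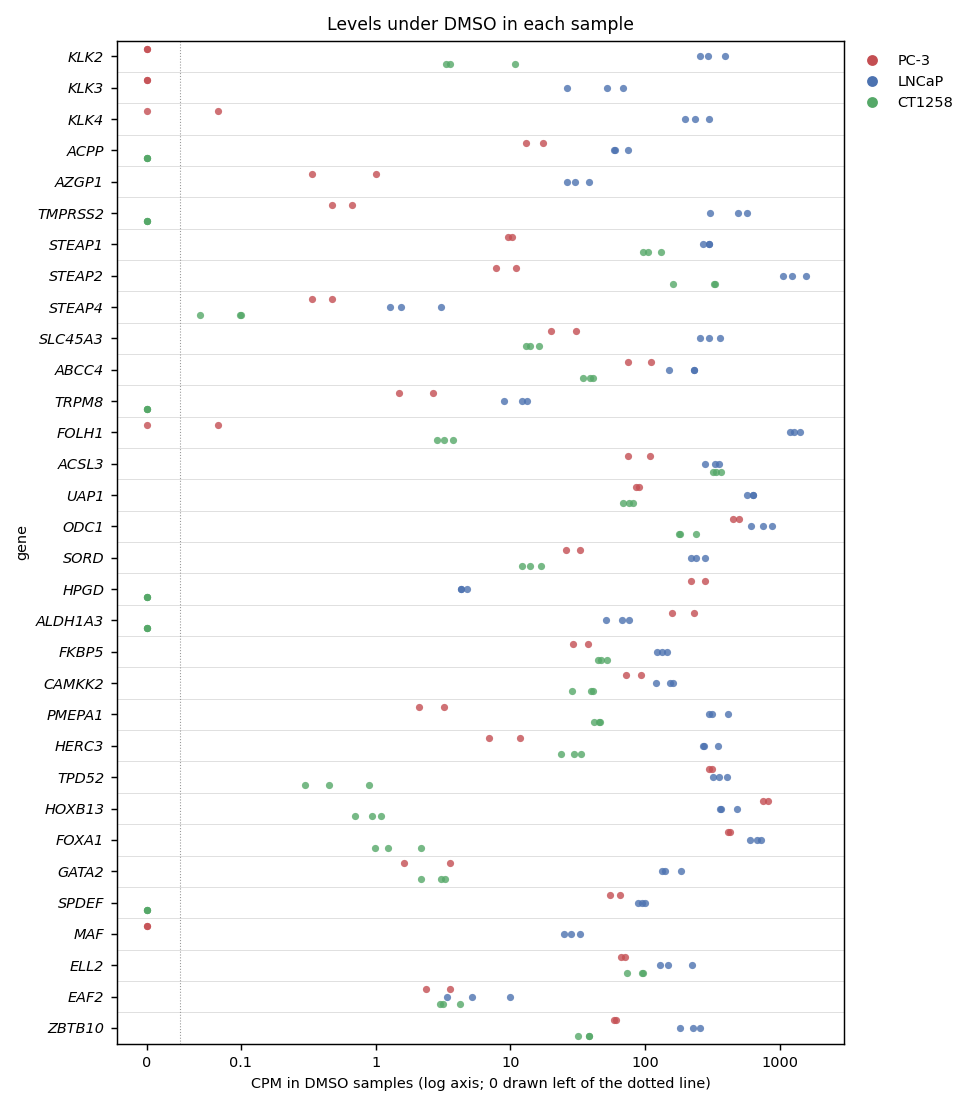
CPM of each member in every DMSO sample (log axis; points left of the dotted line are samples at 0), with PC-3 in red, LNCaP in blue and CT1258 in green. KLK2 and KLK4 were at 197 CPM or more and KLK3 at 26.1 to 68.2 CPM in LNCaP, all 3 were at or near 0 in PC-3, and HPGD and ALDH1A3 were highest in PC-3.

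Before treatment, most members were higher in LNCaP than in PC-3. KLK2 was at 293, 255 and 389 CPM in LNCaP and had no count in either PC-3 sample. KLK3 was at 68.2, 26.1 and 52.0 CPM, again with no count in PC-3. With 3 counts per library as the floor, this makes KLK2 at least 1521-fold, KLK3 at least 237-fold and the transcription factor gene MAF at least 139-fold higher in LNCaP, counting error only. TMPRSS2, a membrane serine protease (chromosome 21, 42836227 to 42903043, GRCh37, minus strand), was at 301, 573 and 486 CPM in LNCaP and at 0.473 and 0.671 CPM in PC-3. FKBP5, a co-chaperone of steroid receptors (chromosome 6, 35541362 to 35696360, minus strand), was at 146, 133 and 122 CPM in LNCaP and at 37.9 and 29.1 CPM in PC-3.

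At a Benjamini-Hochberg adjusted p under 0.001 in edgeR's quasi-likelihood test (15018 genes), 25 of 32 members differed between the DMSO groups of the human lines, compared with 40.8% of all genes. Of the members, 22 were higher in LNCaP and 3 lower, compared with 19.1% and 21.7% of all genes. At 0.05 the count was 31 (63.6% of all genes). FOLH1, KLK2, KLK3, KLK4, MAF, STEAP4 and TMPRSS2 passed the filter only because of LNCaP and could hardly fail to be higher there. Among the other 25 members, 19 differed, 16 of them higher in LNCaP and 3 lower. By role, and with the 7 included, all 5 secreted proteins were higher in LNCaP, as were 6 of 8 membrane proteins, 4 of 6 enzymes, 3 of 5 signalling and trafficking proteins and 4 of 8 transcription or elongation factors.

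The exceptions were HPGD, ALDH1A3 and HOXB13. HPGD, which inactivates prostaglandins, was at 220 and 277 CPM in PC-3 and between 4.28 and 4.79 CPM in LNCaP, a log2 difference of -5.82 ± 0.20 (SE) and an adjusted p of 3.2e-13 by edgeR's quasi-likelihood test. ALDH1A3, which makes retinoic acid from retinal, was at 229 and 159 CPM in PC-3 and at 51.2, 66.7 and 75.6 CPM in LNCaP, a log2 difference of -1.61 ± 0.16 (adjusted p = 1.7e-07). HOXB13, the homeobox factor of the prostate, was at 811 and 751 CPM in PC-3 and at 481, 368 and 361 CPM in LNCaP (-0.98 ± 0.20, adjusted p = 0.00048). No PC-3 sample of these 3 genes overlapped with an LNCaP sample. The call of HOXB13 at 0.001 was lost in 4 of 5 fits with 1 library left out (-1.12 to -0.91). The same held for ODC1 and ELL2, which were higher in LNCaP. TPD52, a trafficking protein, was the member that did not pass 0.05 either (0.21). ABCC4 (1.11), CAMKK2 (0.78), EAF2 (1.04), FOXA1 (0.64), SPDEF (0.63), an ETS factor of luminal cells, and STEAP4 (2.21) passed 0.05 but not 0.001.

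Per kilobase of transcript, the members with the highest DMSO level in LNCaP were FOLH1 (prostate-specific membrane antigen) with 313 CPM per kb, ODC1 (the first enzyme of polyamine synthesis) with 299, STEAP1 with 236, FOXA1 with 190 and STEAP2 with 183. In PC-3 they were HOXB13 with 261 CPM per kb, ODC1 with 194, FOXA1 with 122, HPGD with 96.4 and TPD52 with 75.1. FOXA1 and ODC1 were among the first 5 members in both lines. A share of the possible 75-base reads of FOLH1 (18.3%) and STEAP1 (13.3%) also occurs in a related gene, and how such reads were counted is not stated.

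In CT1258, whose levels are not tested against the human lines because reads were counted on another genome, STEAP2 (331, 162 and 322 CPM), ACSL3 (334, 365 and 319 CPM), ODC1 (180, 236 and 178 CPM) and STEAP1 (105, 131 and 96.8 CPM) were well covered under DMSO. ACPP, TMPRSS2, TRPM8, HPGD and SPDEF were listed at 0 in all 9 samples. HOXB13 was at 0.942, 0.696 and 1.09 CPM and FOXA1 at 0.992, 1.24 and 2.19 CPM, while each was at 361 CPM or more in every DMSO sample of the human lines. KLK2 was at 10.8, 3.33 and 3.58 CPM, with replicate 1 well above the others.

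**Figure D2:**
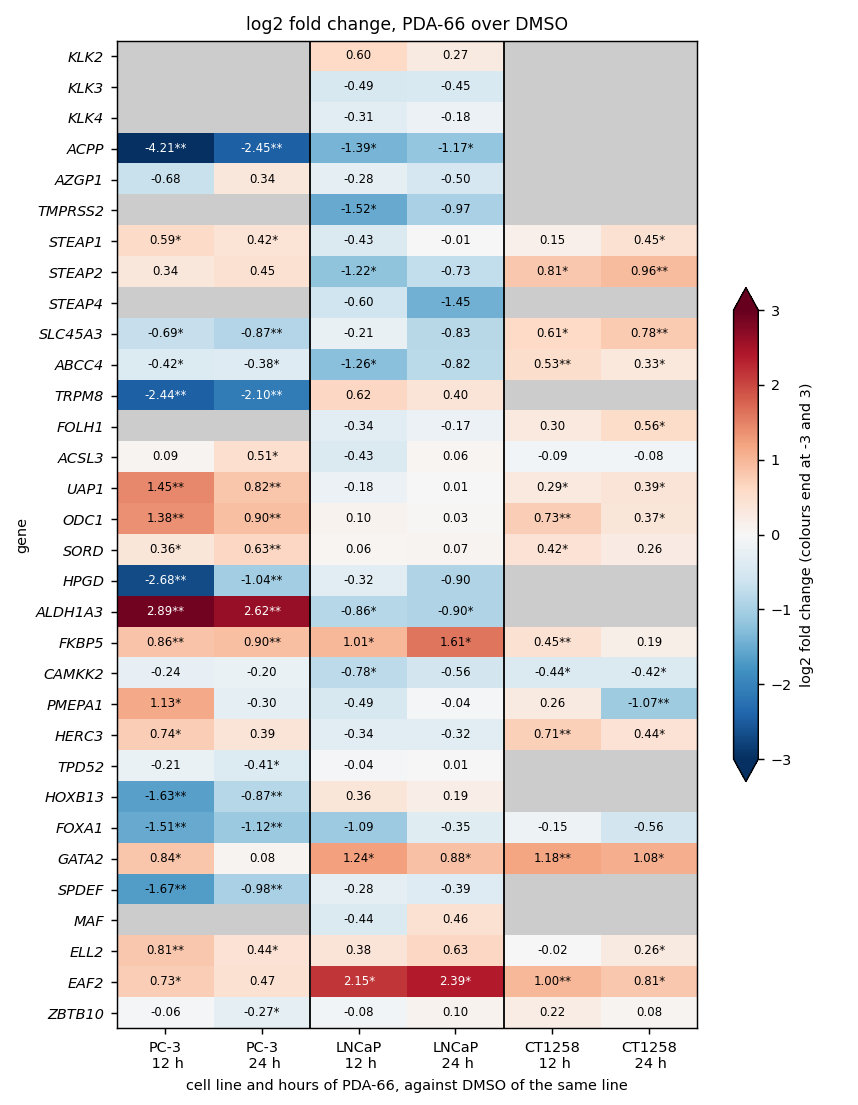
log2 fold change of each member after PDA-66 against DMSO of the same line (red, higher; blue, lower; ** adjusted p under 0.001, * under 0.05; grey, not tested, not analysed or, for KLK2 in CT1258, without a finite value). ALDH1A3 was higher in PC-3 (2.89 and 2.62) and lower in LNCaP (-0.86 and -0.90), and FKBP5, EAF2 and GATA2 were starred and red in all 3 lines after 12 h.

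In LNCaP, PDA-66 moved members in both directions, and the kallikreins were not among those that passed the test. KLK2 was at 321, 802 and 301 CPM after 12 h and at 393, 359 and 381 CPM after 24 h, against 293, 255 and 389 CPM under DMSO. The 802 CPM belong to replicate 2, the library that stood apart, and otherwise the groups overlapped. The log2 fold change was 0.60 ± 0.35 (SE) after 12 h and 0.27 ± 0.35 after 24 h (adjusted p = 0.27 and 0.73, edgeR's quasi-likelihood test), and without that library the 12 h value was -0.0039. KLK3 was at 27.4, 53.6 and 23.7 CPM after 12 h and at 38.4, 31.3 and 37.6 CPM after 24 h, within the DMSO range of 26.1 to 68.2 CPM except for 1 sample. Its log2 fold change was -0.49 ± 0.38 and -0.45 ± 0.38 (adjusted p = 0.41 and 0.58), and -0.93 with an adjusted p of 0.043 after 12 h without replicate 2. KLK4 (-0.31 and -0.18) and AZGP1 (-0.28 and -0.50) did not pass the test either.

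At 0.001, 0 of 32 members were called in LNCaP by edgeR's quasi-likelihood test after either time. The background was 0.0076% of all genes after 12 h and 0% after 24 h. An unadjusted p under 0.05 was seen in 14 members at each time, beside 3950 and 2599 of the 13156 genes tested. At an adjusted p under 0.05, which is used for LNCaP from here on, 9 members passed after 12 h (28.1%, against 9.14% of all genes), of which 3 rose and 6 fell (4.52% and 4.62% of all genes). After 24 h, 5 passed (15.6%, against 2.92%), of which 3 rose and 2 fell (1.35% and 1.57%). These 5 calls were not stable to leaving out 1 of the 9 LNCaP libraries, as GATA2 and ALDH1A3 each missed 0.05 in 6 of the 9 fits, ACPP and EAF2 in 5 and FKBP5 in 3. Without any 1 of the PDA-66 24 h replicates none of them passed, and the count over all genes went from 384 to 3. It was 18 without DMSO replicate 2 or 3. At 0.001 the DESeq2 Wald test called 7 members after 12 h and 5 after 24 h, limma voom with quality weights 14 and 11, and edgeR's exact test 4 and 11. Over all genes these tools called 620 and 286, 1831 and 1473, and 205 and 1254. Between 24 h and 12 h, 0 members were called at either threshold by edgeR's quasi-likelihood test (0% of all genes). Of the members, 6 had an unadjusted p under 0.05, beside 837 of the 13156 genes tested. At 0.001 DESeq2 called 0 members and limma voom 6, beside 1 and 189 of all genes. Without the replicate that stood apart, 7 members passed 0.001 after 12 h and 3 after 24 h, and 17 passed 0.05 at each time, 5 higher and 12 lower. With that library left out, 261 of all genes passed 0.001 after 12 h and 105 after 24 h. At 0.05 it was 3881 and 3727 of all genes, compared with 1202 and 384 with the library kept. The members' gain thus came with one over all genes at both thresholds.

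FKBP5 rose from 146, 133 and 122 CPM to 310, 208 and 289 CPM after 12 h and to 394, 426 and 405 CPM after 24 h. All treated samples lay above all controls, with log2 fold changes of 1.01 ± 0.17 (SE, adjusted p = 0.011) and 1.61 ± 0.17 (adjusted p = 0.0054, edgeR). EAF2, a partner of the ELL elongation factors, had the largest change of the members called in LNCaP, from 9.95, 5.18 and 3.40 CPM to 31.2, 19.7 and 31.5 CPM and then 31.4, 30.9 and 35.2 CPM. Its log2 fold change was 2.15 ± 0.35 after 12 h and 2.39 ± 0.36 after 24 h (adjusted p = 0.010 and 0.019), again without overlap. GATA2 rose from 183, 141 and 134 CPM to 299, 422 and 358 CPM and to 279, 281 and 284 CPM (1.24 ± 0.18 and 0.88 ± 0.18, adjusted p = 0.0078 and 0.036, edgeR), and its groups did not overlap either.

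TMPRSS2 fell from 301, 573 and 486 CPM to 134, 212 and 129 CPM after 12 h, when every treated sample was below every control. After 24 h it was at 240, 221 and 235 CPM. The log2 fold change was -1.52 ± 0.26 (adjusted p = 0.012) after 12 h and -0.97 ± 0.26 after 24 h, which missed 0.05 (adjusted p = 0.080, edgeR) and passed it without the library that stood apart (adjusted p = 0.0053). ACPP, the gene of prostatic acid phosphatase (now named ACP3, chromosome 3, 132036213 to 132087146, plus strand), fell from 58.3, 73.9 and 60.1 CPM to 28.9, 19.7 and 24.8 CPM and to 28.04, 28.8 and 28.7 CPM. This is a log2 fold change of -1.39 ± 0.18 and -1.17 ± 0.18 (adjusted p = 0.0065 and 0.020, edgeR), and the treated and control samples did not overlap at either time.

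STEAP2, a metalloreductase, fell after 12 h from 1060, 1548 and 1233 CPM to 801, 277 and 574 CPM (log2 fold change -1.22 ± 0.32, adjusted p = 0.045, edgeR), with the lowest value in replicate 2. After 24 h it was at 741, 811 and 768 CPM, below every control, with an adjusted p of 0.24 (edgeR, and 0.0070 without the 12 h replicate 2). The 12 h call was lost in 6 of 9 fits with 1 library left out (adjusted p up to 0.16), and without replicate 2 it was -0.89 (adjusted p = 0.0042). ABCC4, an exporter of cyclic nucleotides and prostaglandins, was at 150, 232 and 229 CPM under DMSO, at 109, 53.0 and 93.3 CPM after 12 h (-1.26 ± 0.27, adjusted p = 0.023) and at 113, 119 and 115 CPM after 24 h (adjusted p = 0.13, edgeR, and 0.0048 without the 12 h replicate 2). ALDH1A3 fell from 51.2, 66.7 and 75.6 CPM to 37.7, 35.0 and 33.9 CPM and to 33.5, 34.8 and 35.7 CPM, without overlap (-0.86 ± 0.17 and -0.90 ± 0.17, adjusted p = 0.019 and 0.034). CAMKK2, a kinase that activates AMPK, fell after 12 h (-0.78 ± 0.20, adjusted p = 0.040), a call that was lost in 7 of 9 fits with 1 library left out (adjusted p up to 0.14). The remaining members were not called at either time at 0.05, among them FOXA1 (-1.09 and -0.35), SLC45A3 (-0.21 and -0.83), HOXB13 (0.36 and 0.19) and FOLH1 (-0.34 and -0.17). Without the library that stood apart, FOXA1 (-0.76 and -0.35, adjusted p = 0.00091 and 0.017), SLC45A3 (-0.47 and -0.82, adjusted p = 0.022 and 0.0015) and SPDEF (-0.56 and -0.39, adjusted p = 0.0037 and 0.012) were called lower at 0.05 at both times by edgeR. FOLH1 after 12 h (-0.27, adjusted p = 0.047) and CAMKK2 after 24 h (-0.56, adjusted p = 0.0059, edgeR) were then called lower as well.

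**Figure D3:**
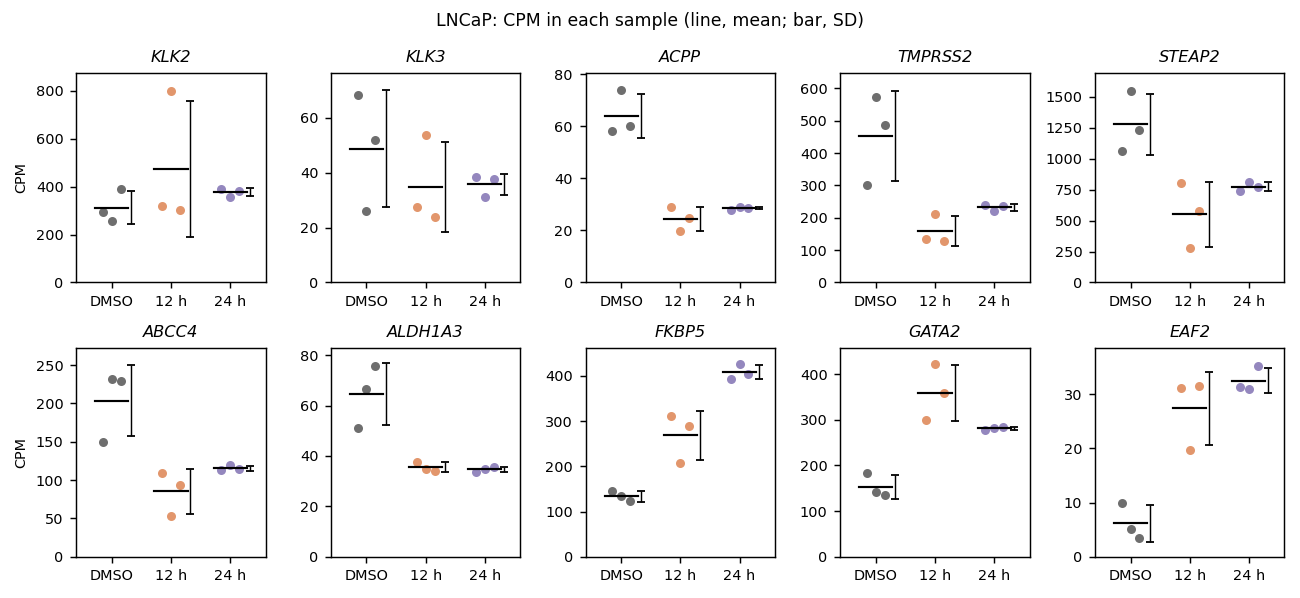
CPM of 10 members in each LNCaP sample under DMSO and after 12 h and 24 h of PDA-66 (points, samples; horizontal line, mean; bar, SD; axes start at 0). KLK2 and KLK3 overlap between groups, ACPP and ALDH1A3 are below all controls at both times, and FKBP5, GATA2 and EAF2 are above them.

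Of the 23 genes of a pathway list (steroid receptors, cofactors and the enzymes of androgen synthesis and breakdown), 21 could be tested in LNCaP. At 0.05, 1 rose and 2 fell after 12 h, and at 24 h there was 1 in each direction, beside 9.14% and 2.92% of all genes. UGT2B17, which conjugates androgens for excretion, fell from 359, 252 and 209 CPM to 74.96, 52.6 and 64.6 CPM and to 107, 127 and 117 CPM (-2.09 ± 0.23 and -1.22 ± 0.22, adjusted p = 0.0049 and 0.030). UGT2B15, its close relative, fell after 12 h (-1.60 ± 0.26, adjusted p = 0.0099), and since the transcripts are very similar, how reads were divided between them is uncertain. FKBP4, another co-chaperone of steroid receptors, was higher after 12 h (0.74) and GRHL2, an epithelial factor, after 24 h (0.66). The luminal markers KRT8, KRT18, KRT19, EPCAM and CDH1 were not called in LNCaP at 0.05. Their summed level was 1372 to 1476 CPM under DMSO, 1350 to 2096 CPM after 12 h, with the highest value in replicate 2, and 1499 to 1542 CPM after 24 h. In such bulk samples, fewer cells of a kind and less RNA per cell cannot be told apart.

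In PC-3, 11 of 25 members were called at 0.001 after 12 h (44%, against 27.6% of all genes), of which 5 rose and 6 fell (13% and 14.6% of all genes). After 24 h it was 12 (48%, against 19.3%), of which 5 rose and 7 fell (8.88% and 10.5%). At 0.05 it was 19 members after 12 h (76%, against 57%) and 18 after 24 h (72%, against 49.9%). The median absolute log2 fold change of the members was 0.81 after 12 h and 0.51 after 24 h, compared with 0.44 and 0.38 over all genes tested. The kallikreins stayed at the floor, with KLK2 at 0 in all 8 samples and KLK3 at 1 count in 1 sample, and TMPRSS2 was between 0.0676 and 0.671 CPM, below the filter.

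ALDH1A3 had the largest rise, from 229 and 159 CPM to 1427, 1421 and 1460 CPM after 12 h and 1211, 1189 and 1176 CPM after 24 h. The log2 fold changes were 2.89 ± 0.14 (SE, adjusted p = 6.0e-09) and 2.62 ± 0.14 (adjusted p = 4.0e-08, edgeR). Reads of this gene may include its antisense partner, because 32.1% of its exon bases overlap with ALDH1A3-AS1 on the other strand and the use of strand in counting is not stated. ODC1 rose from 446 and 498 CPM to 1181, 1222 and 1281 CPM after 12 h and to 866, 893 and 884 CPM after 24 h (1.38 ± 0.10 and 0.90 ± 0.10, adjusted p = 1.4e-07 and 9.3e-06). UAP1, which makes UDP-N-acetylglucosamine, rose from 85.1 and 89.5 CPM to 248, 239 and 230 CPM and to 149, 164 and 151 CPM (1.45 ± 0.10 and 0.82 ± 0.09, adjusted p = 8.1e-08 and 1.7e-05, edgeR). SORD, the fourth enzyme that passed 0.001 after 24 h (0.63), missed it in 7 of 8 fits with 1 library left out (0.47 to 0.83, adjusted p up to 0.0056).

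HPGD fell from 220 and 277 CPM to 40.6, 36.0 and 39.5 CPM after 12 h and stood at 136, 129 and 95.9 CPM after 24 h (-2.68 ± 0.15 and -1.04 ± 0.14, adjusted p = 1.3e-08 and 5.9e-05, edgeR). ACPP fell from 17.4 and 13.0 CPM to 0.607, 0.849 and 1.01 CPM and to 3.08, 3.18 and 2.03 CPM (-4.21 ± 0.24 and -2.45 ± 0.21, adjusted p = 2.5e-08 and 1.4e-06). For both genes every treated sample was below the controls, and the 24 h samples lay between the controls and the 12 h samples.

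Of the 7 transcription and elongation factors that could be tested in PC-3, 3 fell at 0.001 at both times. HOXB13 went from 811 and 751 CPM to 243, 252 and 259 CPM and to 426, 408 and 451 CPM (-1.63 ± 0.09 and -0.87 ± 0.09, adjusted p = 1.7e-08 and 8.6e-06, edgeR). FOXA1 went from 429 and 410 CPM to 156, 139 and 146 CPM and to 197, 195 and 187 CPM (-1.51 ± 0.09 and -1.12 ± 0.09, adjusted p = 3.0e-08 and 9.9e-07). SPDEF went from 65.5 and 54.4 CPM to 16.0, 20.8 and 19.7 CPM and to 28.3, 27.9 and 35.3 CPM (-1.67 ± 0.14 and -0.98 ± 0.14, adjusted p = 6.8e-07 and 8.9e-05). In each case the treated samples were all below both controls. The elongation factor gene ELL2 rose at 12 h (0.81, adjusted p = 2.6e-05), and GATA2 (0.84), EAF2 (0.73) and ZBTB10 (-0.06) did not pass 0.001.

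FKBP5 rose in PC-3 as well, from 37.9 and 29.1 CPM to 63.8, 58.3 and 60.4 CPM and to 70.4, 58.8 and 57.6 CPM (0.86 ± 0.13 and 0.90 ± 0.13, adjusted p = 0.00011 and 0.00012, edgeR). The low-level ion channel gene TRPM8 fell from 1.49 and 2.68 CPM to between 0.261 and 0.593 CPM over both times (-2.44 and -2.10, adjusted p = 0.00023 and 0.00075). SLC45A3, a sugar transporter also called prostein, had log2 fold changes of -0.69 and -0.87 (adjusted p = 0.0034 and 0.00099, edgeR), and its 2 control samples differed, at 30.9 and 19.9 CPM. Its 24 h call at 0.001 was lost in 7 of 8 fits with 1 library left out, and that of TRPM8 in 6.

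**Figure D4:**
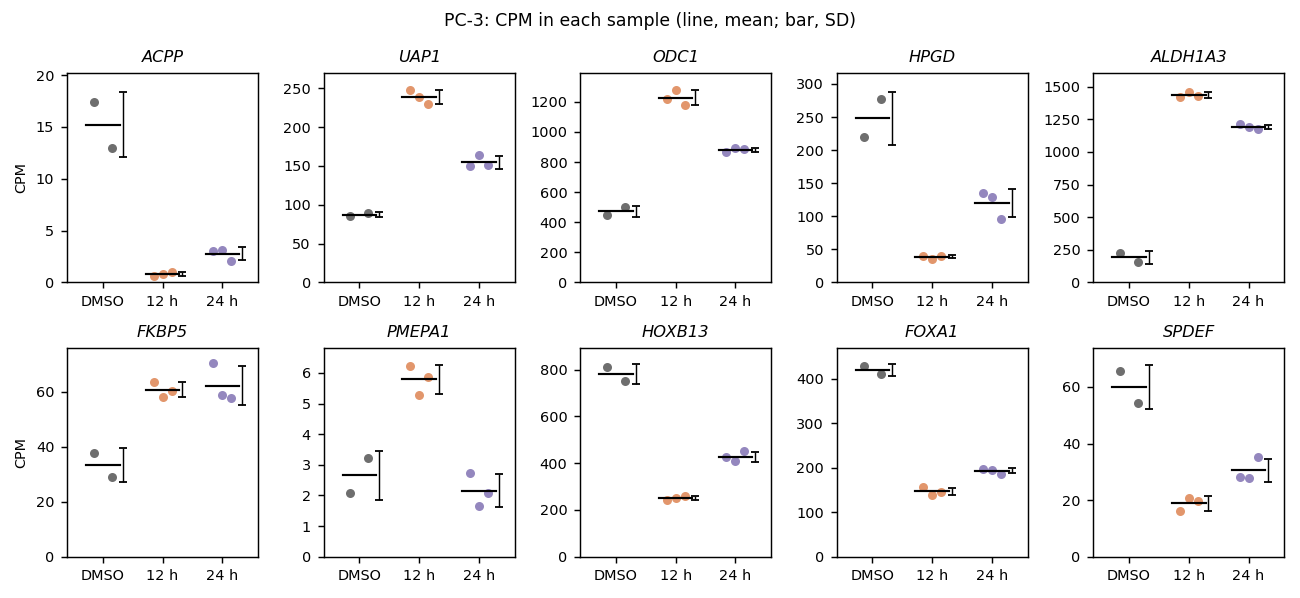
CPM of 10 members in each PC-3 sample under DMSO (2 samples) and after 12 h and 24 h of PDA-66 (3 samples each; points, samples; horizontal line, mean; bar, SD; axes start at 0). ALDH1A3, UAP1, ODC1 and FKBP5 are above both controls at both times, and ACPP, HPGD, HOXB13, FOXA1 and SPDEF are below them.

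Between the treatment times, 4 of 25 members differed in PC-3 at 0.001 (16%, against 1.41% of all genes), 2 higher and 2 lower after 24 h (0.777% and 0.631%), and 10 at 0.05 (40%, against 10.1%), 6 higher and 4 lower (5.59% and 4.5%). Leaving out any 1 treated sample left 1 or 2 members at 0.001. HPGD (1.64 ± 0.13) and HOXB13 (0.77 ± 0.08) were higher after 24 h than after 12 h, and UAP1 (-0.63 ± 0.08) and PMEPA1 (-1.42 ± 0.21) lower (adjusted p between 1.3e-05 and 0.00089, edgeR). PMEPA1, a brake on TGF-beta signalling, was at 2.09 and 3.22 CPM under DMSO, at 6.23, 5.29 and 5.86 CPM after 12 h and at 2.73, 1.65 and 2.10 CPM after 24 h. For HPGD, HOXB13 and UAP1 the 24 h level was nearer to DMSO than the 12 h level, but the DMSO samples were themselves labelled 24 h.

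Markers of other kinds moved in the same PC-3 samples. At 0.05, 4 of the 5 luminal markers fell at each time, as did 28.7% and 25.6% of all genes. CDH1 (-2.44 and -2.18) and KRT18 (-1.06 and -0.67) were among these markers, and KRT8 was not called. The summed level of the luminal list was 987 to 1088 CPM under DMSO, 658 to 727 CPM after 12 h and 680 to 908 CPM after 24 h. The basal keratin KRT15 fell (-2.78 and -2.05), and CDH2 rose (1.65 and 0.95), whereas VIM (-0.34) and ZEB1 (-0.24), also of the mesenchymal list, fell after 24 h at 0.05. Of the 6 neuroendocrine markers, ENO2 fell at both times, SYP fell after 24 h at 0.05, and INSM1 was at 0 in all samples. Their part in the members' changes was not tested. Of the pathway list, 18 genes could be tested. At 0.001, 2 rose and 1 fell at each time, not a larger share than the 27.6% and 19.3% of all genes. SRD5A3, of the 5-alpha-reductase family, was the one that fell (-1.82 ± 0.12 and -1.52 ± 0.12), and FKBP4 rose at both times (0.67 and 0.62).

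In CT1258, 7 of 19 members were called at 0.001 after 12 h (36.8%, against 44.3% of all genes), of which 6 rose and 1 fell (22.2% and 22.1% of all genes). After 24 h it was 4 (21.1%, against 33.8%), with 2 in each direction (16.6% and 17.2%). At 0.05 it was 12 members after 12 h (63.2%, against 69.8%), of which 10 rose and 2 fell (34.7% and 35%), and 14 after 24 h (73.7%, against 62.1%), of which 11 rose and 3 fell (30.6% and 31.6%). At 0.001 the members' share was thus not above the background, and their median absolute log2 fold changes of 0.44 at both times were beside 0.51 and 0.43 over all genes. Without DMSO replicate 2, 11 and 10 members were called at 0.001, and with it left out 5567 and 4629 of all genes were, compared with 4383 and 3340. Members called only then included STEAP2 and SLC45A3 after 12 h, and ODC1, EAF2 and GATA2 after 24 h. Leaving out another single library gave as few as 2 members after 12 h (without PDA-66 12 h replicate 1 or 2; 3 without replicate 3, 4 without DMSO replicate 1) and 1 after 24 h (without PDA-66 24 h replicate 1; 2 without replicate 3). Over all genes the count was then 3206 and 3238 after 12 h without PDA-66 12 h replicate 1 or 2, and 2602 and 2116 after 24 h without PDA-66 24 h replicate 1 or 3.

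The member that fell at 0.001 at both times was KLK2. It had 218, 67 and 72 counts in the DMSO samples (10.8, 3.33 and 3.58 CPM) and 0 counts in all 6 PDA-66 samples. Against a floor of 3 counts per library this is at least 15.3-fold lower after 12 h and at least 15.2-fold lower after 24 h, counting error only. The size of this bound rests on DMSO replicate 1, without which (chosen after seeing the data) it is 8.93-fold and 8.87-fold. CAMKK2 was called lower at 0.05 at both times (-0.44 and -0.42, edgeR), and at 0.001 without DMSO replicate 2. KLK2 was the only gene of the 16028 listed that was at 0 in all PDA-66 samples and had at least 20 counts in each DMSO sample, and 0 genes showed the opposite pattern. The CT1258 DMSO libraries had between 19909616 and 20976950 counts and the PDA-66 libraries between 7203534 and 8325867, so depth moved with treatment in this line. Whether the transcript is the counterpart of human KLK2 was not tested.

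STEAP2 rose in CT1258 from 331, 162 and 322 CPM to 495, 481 and 457 CPM after 12 h and 505, 551 and 527 CPM after 24 h (0.81 ± 0.19 and 0.96 ± 0.19, adjusted p = 0.0017 and 0.00061, edgeR), with the low control in replicate 2. Without that control the log2 fold changes were 0.54 and 0.69. SLC45A3 rose from 13.9, 16.2 and 13.1 CPM to 24.6, 19.2 and 22.2 CPM and to 28.4, 23.5 and 22.2 CPM (0.61 ± 0.13 and 0.78 ± 0.13, adjusted p = 0.0011 and 0.00019). ABCC4 rose from 40.8, 34.3 and 39.2 CPM to 57.9, 60.9 and 46.6 CPM after 12 h (0.53 ± 0.11, adjusted p = 0.00088), and was at 51.7, 45.4 and 46.4 CPM after 24 h (0.33 ± 0.12, adjusted p = 0.024). In these 3 genes of membrane proteins no treated sample overlapped with a control, in a line where 69.8% of all genes passed 0.05 after 12 h.

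ODC1 rose from 180, 236 and 178 CPM to 327, 327 and 335 CPM after 12 h and was at 263, 263 and 246 CPM after 24 h (0.73 ± 0.10 and 0.37 ± 0.10, adjusted p = 2.3e-05 and 0.0058, edgeR). HERC3, a ubiquitin ligase, rose after 12 h from 29.8, 23.7 and 33.3 CPM to 52.2, 47.5 and 42.0 CPM (0.71 ± 0.13, adjusted p = 0.00021) and was at 40.5, 40.0 and 37.0 CPM after 24 h. FKBP5 rose from 46.7, 44.9 and 51.6 CPM to 67.5, 65.2 and 63.3 CPM after 12 h (0.45 ± 0.09, adjusted p = 0.00045) and was at 51.4, 54.95 and 56.6 CPM after 24 h, where 1 sample lay within the control range and the change of 0.19 was not called. PMEPA1 was the member that differed between the times at 0.001 (2.13% of all genes differed, 0.85% being higher and 1.28% lower), with 46.4, 41.7 and 45.2 CPM under DMSO, 57.9, 56.1 and 45.3 CPM after 12 h and 23.6, 20.6 and 19.3 CPM after 24 h. Its log2 fold change after 24 h was -1.07 ± 0.12 (adjusted p = 5.1e-06, edgeR).

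GATA2 and EAF2 were low in CT1258 but rose there too. GATA2 went from 2.18, 3.28 and 3.03 CPM to 5.46, 6.12 and 7.75 CPM and to 7.00, 4.33 and 6.65 CPM (1.18 ± 0.23 and 1.08 ± 0.23, adjusted p = 0.00037 and 0.0010, edgeR). EAF2 went from 2.98, 4.23 and 3.18 CPM to 8.53, 5.996 and 6.28 CPM and to 5.77, 6.16 and 6.38 CPM (1.00 ± 0.19 and 0.81 ± 0.20, adjusted p = 0.00041 and 0.0027). No treated sample of either gene overlapped with a control. Of the pathway list 12 genes could be tested. At 0.001, 3 of these rose and 2 fell after 12 h, and 1 rose and 1 fell after 24 h. Neither was a larger share than the 44.3% and 33.8% of all genes. SRD5A3 rose (1.21 ± 0.10 and 0.58 ± 0.11), and HSD17B10, an enzyme of steroid and fatty acid oxidation, fell (-1.19 ± 0.13 and -1.07 ± 0.13).

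**Figure D5:**
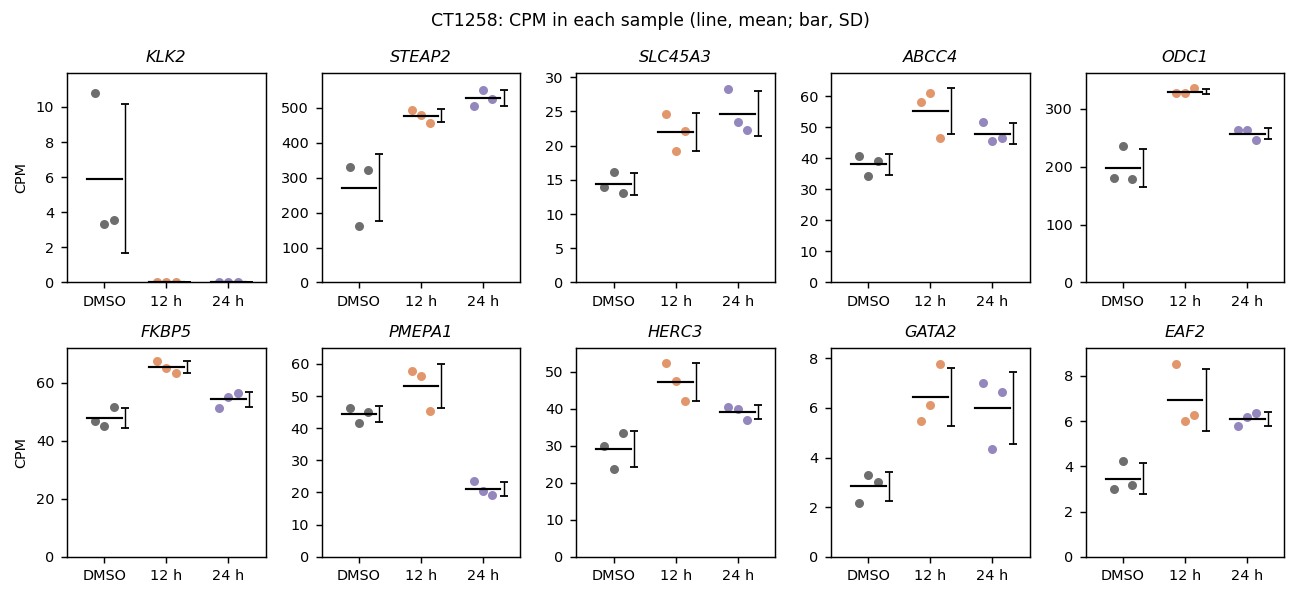
CPM of 10 members in each CT1258 sample under DMSO and after 12 h and 24 h of PDA-66 (points, samples; horizontal line, mean; bar, SD; axes start at 0). KLK2 is at 0 in all 6 treated samples, PMEPA1 falls after 24 h, and STEAP2, SLC45A3, ABCC4, HERC3, GATA2 and EAF2 are above all controls at both times.

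Seen across the lines, FKBP5, EAF2 and GATA2 were higher at 0.05 in all 3 lines after 12 h, genes named after their values were seen. The share of all genes higher in all 3 lines was not counted, so no background stands beside them. The log2 fold changes in the order CT1258, LNCaP and PC-3 were 0.45, 1.01 and 0.86 for FKBP5, 1.00, 2.15 and 0.73 for EAF2, and 1.18, 1.24 and 0.84 for GATA2. GATA2 in PC-3 was at 3.58 and 1.61 CPM under DMSO and at 4.91, 4.90 and 4.15 CPM after 12 h. In PC-3 the 12 h calls of GATA2 and EAF2 rest on DMSO replicate 3, since without it the log2 fold changes were 0.39 and 0.47 (adjusted p = 0.16 and 0.13, edgeR), and they were 1.53 and 1.07 without DMSO replicate 2. EAF2 also missed 0.05 without 1 of the 12 h samples. FKBP5 was not alike in size everywhere, because the response in LNCaP exceeded that in CT1258 by 0.51 after 12 h and by 1.39 after 24 h (adjusted p = 0.038 and 3.1e-05 for the difference, edgeR). After 24 h in PC-3, EAF2 (0.47) and GATA2 (0.08) did not pass 0.05.

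Differences between the lines were tested directly as an interaction at an adjusted p under 0.05. Members were counted only where they had passed the filter in each of the lines compared. The shares over all genes cover every gene of the joint fit, also those low in 1 line, so the sets are not alike. Between LNCaP and PC-3, the response of 12 of 25 members differed after 12 h (48%, against 13.7% of all genes) and that of 7 after 24 h (28%, against 5.99%). ALDH1A3 differed most, with a response in LNCaP that was lower by -3.80 ± 0.23 after 12 h and -3.55 ± 0.23 after 24 h (adjusted p = 1.1e-07 and 5.7e-07, edgeR). The falls seen in PC-3 were larger than the changes in LNCaP for HPGD (difference 2.31 ± 0.25), HOXB13 (1.93 ± 0.28), SPDEF (1.34 ± 0.27), ACPP (2.77 ± 0.32) and TRPM8 (3.02 ± 0.43) after 12 h, with adjusted p between 4.6e-05 and 0.0042. The response of UAP1 (difference -1.68 ± 0.20) and ODC1 (-1.33 ± 0.18) was larger in PC-3 (adjusted p = 8.2e-05 and 0.00023, edgeR). For FOXA1 the difference did not pass the test.

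Between LNCaP and CT1258, 11 of 19 members differed after 12 h (57.9%, against 40.2% of all genes) and 9 after 24 h (47.4%, against 21.1%), KLK2 included, whose value there has no finite size. STEAP2 and ABCC4 went in opposite directions after 12 h, with differences of -2.07 ± 0.38 and -1.83 ± 0.29 (adjusted p = 0.00018 and 4.0e-05, edgeR). Between PC-3 and CT1258, 6 of 17 members differed after 12 h (35.3%, against 30.1%) and 3 after 24 h (17.6%, against 21.2%), close to the background. SLC45A3 was lower in PC-3 and higher in CT1258, with differences of -1.31 ± 0.27 and -1.65 ± 0.27 (adjusted p = 0.00067 and 0.00012). Without LNCaP PDA-66 12 h replicate 2, the members that differed between LNCaP and PC-3 were 15 after 12 h and 14 after 24 h, between LNCaP and CT1258 14 and 11, and between PC-3 and CT1258 8 and 8. The counts over all genes moved too, from 2060 and 899 to 3647 and 3132 for LNCaP and PC-3, from 3531 and 2493 to 5169 and 4214 for PC-3 and CT1258, and from 4717 and 2472 to 4537 and 4284 for LNCaP and CT1258, where that at 12 h became smaller.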

How the data were processed

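Poly(A)-selected RNA was sequenced as single reads of 75 bases. The authors mapped human reads to HG19 with STAR 2.3.1s and canine reads to CanFam3.1 with BWA, and deposited whole counts per gene without normalization. How strand and reads matching several genes were handled is not given in the sources used here. In 1 PC-3 column of the deposited counts, of another format, separators trailing each count were removed.

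Each line was fitted on its own in edgeR 4.0.16 (R 4.3.3) with DMSO, 12 h and 24 h as groups, filterByExpr, TMM and quasi-likelihood F tests, with Benjamini-Hochberg adjustment over all genes tested (13777 in PC-3, 13156 in LNCaP, 9886 in CT1258). The threshold was 0.001 as in the study, with 0.05 beside it, and 0.05 for interactions. The baseline was tested over the human groups (15018 genes), and interactions over these or all 9 groups (11736 genes shared by symbol). CPM were computed on TMM-scaled library sizes of each line. DESeq2 1.42.0 and limma 3.58.1 were alternatives, as were other scaling, no filter, a replicate block and leaving out each library. The test was checked on simulated data. Fold bounds from the floor cover counting error only, whereas each SD and SE includes the spread between replicates.

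Values in every sample were given for KLK2, KLK3, TMPRSS2 and FKBP5 and, per line, for up to 8 members with the largest change among those past 0.001 (0.05 in LNCaP) and a mean of at least 5 CPM. The members and lists were chosen with earlier results of these data known. Positions came from GENCODE on GRCh37 and promoters from RefSeq. The canine genome was not used here, and 1 labelled PC-3 DMSO sample was not analysed here. The values of 1 gene of the pathway list are not reported here.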

Additional observations from a re-analysis of the deposited data

Results flagged for a closer look

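These are the members whose response to PDA-66 differed between cell lines at an adjusted p under 0.05 in edgeR's test of the difference itself. Each value is the log2 fold change of the first line minus that of the second, and adjusted p-values lay between 1.1e-07 and 0.0497. Members called in opposite directions come first. ALDH1A3 in LNCaP minus PC-3 was at -3.80 after 12 h (-0.86 against 2.89) and -3.55 after 24 h (-0.90 against 2.62). ABCC4 after 12 h was at -1.83 in LNCaP minus CT1258 (-1.26 against 0.53) and at -0.96 in PC-3 minus CT1258 (-0.42 against 0.53). Without PC-3 DMSO replicate 2, the change of ABCC4 in PC-3 was -0.093 (adjusted p = 0.44). STEAP2 in LNCaP minus CT1258 was at -2.07 after 12 h (-1.22 against 0.81). SLC45A3 in PC-3 minus CT1258 was at -1.31 after 12 h (-0.69 against 0.61) and -1.65 after 24 h (-0.87 against 0.78). Its changes in PC-3 were -0.33 and -0.51 without DMSO replicate 2, and -0.96 and -1.13 without DMSO replicate 3.

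The other differences were in size, or had 1 of the lines short of the threshold. In LNCaP minus PC-3 after 12 h, they were positive for ACPP (2.77), HOXB13 (1.93), HPGD (2.31), SPDEF (1.34) and TRPM8 (3.02) and negative for HERC3 (-1.13), ODC1 (-1.33), PMEPA1 (-1.67), STEAP1 (-1.07), STEAP2 (-1.60) and UAP1 (-1.68). After 24 h they were positive for ACPP (1.25), EAF2 (1.89), HOXB13 (1.02) and TRPM8 (2.46) and negative for ODC1 (-0.90) and UAP1 (-0.85). In LNCaP minus CT1258 after 12 h, EAF2 (1.10) and FKBP5 (0.51) were positive and FOLH1 (-0.69), HERC3 (-1.10), ODC1 (-0.68), PMEPA1 (-0.80), SLC45A3 (-0.88) and UAP1 (-0.52) negative. After 24 h, EAF2 (1.54), FKBP5 (1.39) and PMEPA1 (1.00) were positive and ABCC4 (-1.18), FOLH1 (-0.75), HERC3 (-0.79), SLC45A3 (-1.64) and STEAP2 (-1.72) negative. In PC-3 minus CT1258 after 12 h, ODC1 (0.63), PMEPA1 (0.85) and UAP1 (1.15) were positive and FOXA1 (-1.38) negative, and after 24 h FKBP5 (0.70) and ODC1 (0.52) were positive. KLK2 against CT1258 is left out because its response there has no finite size. Groups of 3 samples or fewer were not searched for single samples that lie far from the others.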

How the results depend on the processing

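In these cases the number of members called moved by over 1.5 times, and apart from the libraries left out and the threshold the cause was not tested. At 0.05 it was 19 in PC-3 after 12 h and 10 between its times, 9 and 5 in LNCaP, and 12, 14 and 2 in CT1258 (12 h, 24 h, between times). At 0.001 the DESeq2 Wald test gave 8 in PC-3 between times (514 of all genes), 7 and 5 in LNCaP (620 and 286), and 7 in CT1258 after 24 h (4016). Limma voom with quality weights gave 14 in PC-3 between times (2320 of all genes) and 14, 11 and 6 in LNCaP (1831, 1473 and 189). In CT1258 it gave 13, 10 and 4 (6239, 5425 and 2073 of all genes). For differences between lines after 24 h at 0.05 it gave 15 for LNCaP and PC-3 (2936 of all genes). It gave 14 for LNCaP and CT1258 (5751) and 6 for PC-3 and CT1258 (4752). The edgeR exact test gave 4 and 11 in LNCaP (205 and 1254 of all genes). At 0.001 the differences between lines were 7 after 12 h and 1 after 24 h for LNCaP and PC-3, beside 230 and 40 of all genes. They were 4 and 2 for LNCaP and CT1258 (1508 and 404) and 2 and 1 for PC-3 and CT1258 (1095 and 562). Leaving out 1 library gave 1 to 6 in PC-3 between times, 0 to 7 in LNCaP after 12 h and 0 to 3 after 24 h, where the highest values were those without PDA-66 12 h replicate 2, and 2 to 11, 1 to 10 and 1 to 2 in CT1258, where the highest were those without DMSO replicate 2. Without the LNCaP library, differences between lines after 24 h were 14 (LNCaP and PC-3) and 8 (PC-3 and CT1258). The baseline count stayed between 22 and 26, which includes leaving out PC-3 DMSO samples, an alternative chosen after seeing the data. Some small changes that were not called turned sign. The log2 fold change of KLK2, LNCaP PDA-66 12 h vs DMSO, was -0.0834 with limma voom and between -0.0039 and 0.84 with 1 library left out, and the log2 fold change of KLK2, LNCaP PDA-66 24 h vs 12 h, was 0.31 with limma voom and between -0.57 and 0.28 with 1 library left out. KLK3 in LNCaP between times ranged from -0.18 to 0.49 and FKBP5 in PC-3 between times from -0.063 to 0.086. Of the other values, those of single members, 1661 kept their direction and side of the threshold, 154 lost the threshold and 88 gained it.

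Replicate numbers did not pair the samples, since same-numbered samples correlated at -0.420 to 0.185. With a replicate block, 9 members were called at 0.001 in PC-3 after 24 h, beside 1563 of all genes. In each LNCaP comparison 0 members were called by edgeR, as were 0 of all genes. In CT1258 it was 6, 4 and 1 members, beside 4112, 3062 and 132 of all genes. No paired analysis was possible because of fewer than 2 shared numbers for PC-3 after 12 h and between its times.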
